A study of Mus musculus with 24 samples.

Results

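Carboxylesterases are serine hydrolases that split esters of drugs, of other foreign compounds and of lipids. The 10 genes described here, *Ces1c*, *Ces1d*, *Ces1e*, *Ces1f*, *Ces1g*, *Ces2a*, *Ces2c*, *Ces2e*, *Ces3a* and *Ces3b*, were found by their gene name in the tables of mouse liver expression, which list 54733 genes. All 10 had a mean of at least 1 FPKM (fragments scaled by transcript length and by the fragments mapped in the library), as had 11244 of the 54733 genes, and only those 11244 genes were tested. Their mRNA was followed in 24 liver libraries of male C57BL/6 mice. They came from wild-type (WT) mice and from ΔRRE mice, which carried a deletion made by genome editing of both Rev-erb/ROR response elements (RREs) upstream in *Bmal1*, a core activator gene of the circadian clock. Each genotype had 12 libraries, with 2 libraries per time point every 4 h from CT2 to CT22, where CT is the projected circadian time. The study's methods give an age of 8 to 24 weeks for mice used for tissue RNA, collection from 26 h after the start of constant darkness, and use of ΔRRE line #1 unless stated otherwise. Both genotypes were kept in darkness alike.

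Most carboxylesterases reside in the lumen of the endoplasmic reticulum of hepatocytes, where a serine in the active site attacks the ester bond and water then releases the acid. In liver they are known for clearing ester drugs and prodrugs and for turning over stored triacylglycerol during the assembly of lipoproteins. The mouse has many more of these genes than the human genome, because the family grew by tandem duplication.

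The deposited tables were built on mm10, and the positions and sequences given next come from the GRCm38 annotation of the same build. All 10 genes are protein coding and lie on chromosome 8 in 2 groups of neighbours. The *Ces1* and *Ces5a* group held 9 genes from 93020214 to 93535830 on the minus strand, 515.6 kb in all. The *Ces2*, *Ces3* and *Ces4a* group held 11 genes from 104734003 to 105150109 on the plus strand, 416.1 kb in all. *Ces1d*, to which the results on time turn, runs from 93166068 to 93197838 with 14 exons. *Ces1g* runs from 93302369 to 93337308 with 14 exons and *Ces2c* from 104847068 to 104854483 with 12 exons.

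The 18 coding bases around the catalytic serine are shown because this is the part of the enzyme that the family shares, with the serine codon in capitals. *Ces1e* and *Ces1f* had the same letters as *Ces1d*, and *Ces3b* had the same letters as *Ces3a*. All these windows are coding sequence within an exon.
Ces1c, chr8:93123118-93123135, minus strand: ggagagTCAtcagggggt
Ces1d, chr8:93187761-93187778, minus strand: ggagagTCAgcaggaggt
Ces2a, chr8:104737410-104737427, plus strand: ggagtcTCAgcaggaggt
Ces3a, chr8:105051586-105051603, plus strand: ggtaacTCTgctggaggc

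The end of the coding sequence is shown because it shows whether the enzyme carries the known retention signal of the endoplasmic reticulum, a histidine, any residue, a glutamate and a leucine at the very end. The last 4 codons are in capitals and the stop codon is in lower case. This signal was encoded by 7 of the 10 genes, and the exceptions were *Ces1c*, *Ces3a* and *Ces3b*. *Ces1c* is the known esterase of mouse plasma, to which hepatocytes secrete it.
Ces1c, chr8:93099165-93099179, minus strand: ACAGAACACAAAtga
Ces1d, chr8:93166255-93166269, minus strand: CATGTTGAGCTCtga
Ces1g, chr8:93302905-93302919, minus strand: CATGTTGAACTGtga
Ces2c, chr8:104854250-104854264, plus strand: CACAGGGAGCTTtag
Ces3a, chr8:105058089-105058103, plus strand: CCAGAGGAGCTCtga

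Because some carboxylesterase genes are near copies of another, reads can be split between such genes in ways that the deposited values do not show. The coding sequences of *Ces3a* and *Ces3b* were 95.3% identical, those of *Ces2c* and *Ces2b* 92.1% and those of *Ces1c* and *Ces1b* 90.9%. Of the windows of 75 bases in the transcript of *Ces2c*, 25.9% also occurred in the transcript of another gene, mostly the pseudogene *Ces2d-ps*. The share was 18.3% for *Ces3a* and 15.4% for *Ces3b*, mostly with each other, 14.8% for *Ces2a*, 6.73% for *Ces1c*, 1.05% for *Ces1e* and 0.468% for *Ces2e*. It was 0% for *Ces1d*, *Ces1f* and *Ces1g*, whose values are therefore the least open to such splitting. The levels of *Ces2a*, *Ces2c*, *Ces3a* and *Ces3b* are uncertain for this reason, by an amount that these shares do not give.

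The FPKM values of a library summed to between 554170 and 624746, and the number of reads behind each value is unknown. The 6 hepatocyte markers (*Alb*, *Ttr*, *Apoa1*, *Serpina1a*, *Cyp2e1* and *Cps1*) summed to between 34475 and 52005 FPKM, and the lowest value of any of them was the 562 FPKM of *Cps1*. *Arntl*, the name of *Bmal1* in the files, ranged from 0.0919 to 13.2 FPKM in WT and from 2.096 to 4.21 FPKM in ΔRRE, and its time course differed between the genotypes (limma, unadjusted p = 4.12e-06). Across genes the 2 libraries of a group had a Pearson's r from 0.955 to 0.974. In 2 libraries, ΔRRE CT10 replicate 1 and ΔRRE CT14 replicate 1, the summed level of 10 acute-phase genes was 15890 and 18501 FPKM, against 4983 to 11463 FPKM in the other 22. The same 2 libraries had the highest sums of 5 blood genes, 4322 and 4451 FPKM against at most 2062 FPKM elsewhere. Of these 5, *Alas2* was at most 58.8 FPKM in any library, so the blood sums were mostly globin mRNA. Both libraries also had the highest sums of 5 periportal genes, 4504 and 4540 FPKM against at most 3920 FPKM. Many results that rest on these libraries are given with and without them, and the others only with them. With these 2 included, the 5 highest acute-phase sums of the 24 were all of ΔRRE libraries. The median acute-phase sum was 8153 FPKM in ΔRRE and 6229 FPKM in WT, with 1226 and 842 FPKM for the blood genes. The part of these markers in differences between the genotypes was not tested. In bulk liver, fewer cells of a type and less RNA per cell cannot be told apart. The labels number the replicates but do not say that each is a separate mouse, so p-values measure the spread between these libraries.

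The 10 genes together reached between 2386 and 3489 FPKM per library, with a median of 3089 FPKM, which was from 0.429% to 0.613% of the FPKM of a library. More of this sum came from the *Ces1* genes (median 57.7%) and the *Ces3* genes (34.4%) than from the *Ces2* genes (7.93%). The plasma esterase *Ces1c* was highest, at 1036 ± 129 FPKM (SD, n = 24), and *Ces3a* followed at 825 ± 152 FPKM. *Ces1d*, the triacylglycerol hydrolase that mobilizes stored fat for lipoproteins, came next at 346 ± 128 FPKM.

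At intermediate levels were *Ces1f* at 240 ± 30.3 FPKM, *Ces3b* at 178 ± 55.5 FPKM and *Ces2a* at 139 ± 13.9 FPKM. The lower part held *Ces1g* at 87.9 ± 21.5 FPKM, *Ces1e* at 77.2 ± 16.1 FPKM, *Ces2e* at 71.3 ± 17.2 FPKM and *Ces2c* at 28.2 ± 11.97 FPKM. *Ces1g* is known to restrain lipid synthesis in liver, and *Ces1e* is egasyn, the protein that holds β-glucuronidase in the endoplasmic reticulum. The order was the same by the median and within each genotype. It held in every library for *Ces3a* above *Ces1d*, *Ces2a* above *Ces1g* and *Ces2e* above *Ces2c* (24 of 24 each). For the other neighbours the order changed between libraries. *Ces1c* was above *Ces3a*, *Ces1d* above *Ces1f* and *Ces1f* above *Ces3b* in 19 of 24 libraries each, *Ces2e* was below *Ces1e* in 18, *Ces1g* was above *Ces1e* in 17 and *Ces3b* was above *Ces2a* in 16.

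**Figure D1:**
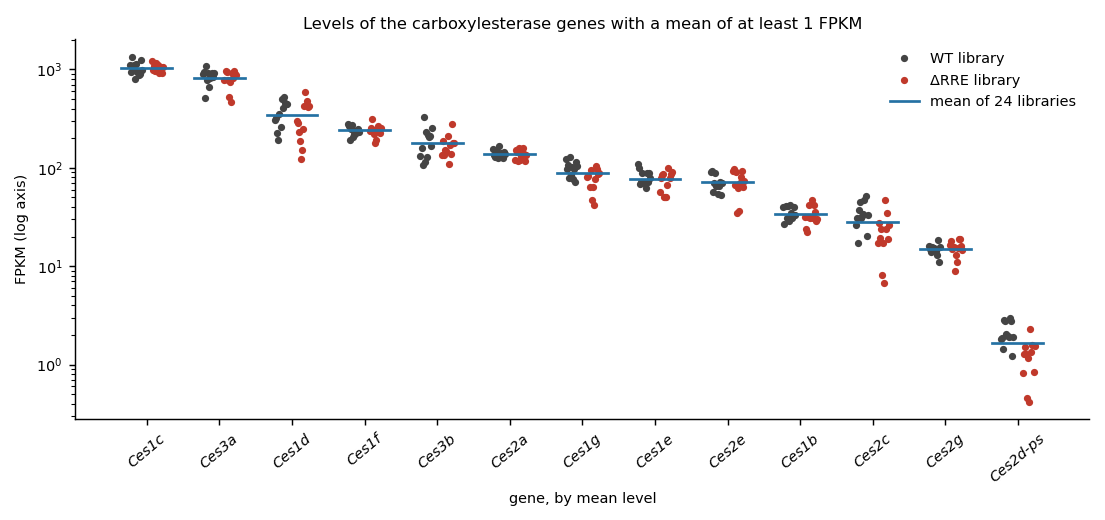
Level of each carboxylesterase gene with a mean of at least 1 FPKM, on a log axis, by gene in the order of the mean. Each point is 1 library (12 WT, 12 ΔRRE) and the line is the mean of 24; the means fall from 1036 FPKM for Ces1c to 28.2 FPKM for Ces2c among the 10 members, and the lowest points of Ces2c are 2 ΔRRE libraries.

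The members differed in how far they varied. *Ces2a* was the steadiest, with a highest library 1.40 times the lowest, and *Ces1c* and *Ces1f* spanned 1.69-fold and 1.75-fold. *Ces1d* spanned 4.80-fold and *Ces2c* 7.75-fold. For *Ces1d* the 2 libraries of a group were close (median ratio 1.19), so that its range lay mainly between time points. For *Ces2c* and *Ces3b* the replicates themselves were apart, with a median ratio of 1.46 and 1.48. The largest ratio of 2 replicates was 7.01 for *Ces2c* in ΔRRE at CT14, and for *Ces3b* it was 3.07 in WT at CT6.

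Of the family, *Ces1d* alone had a daily rhythm at an adjusted p under 0.05. In WT its level was lowest at CT6, with 224 and 194 FPKM, and highest at CT18, with 527 and 460 FPKM. Between these it was 304 and 324 FPKM at CT2, 355 and 259 FPKM at CT10, 501 and 409 FPKM at CT14, and 442 and 449 FPKM at CT22. The libraries of CT14, CT18 and CT22 were all above those of CT2 and CT6, without overlap. In ΔRRE the lowest values were at CT10, with 124 and 151 FPKM, and the highest again at CT18, with 594 and 481 FPKM. The other values in ΔRRE were 298 and 286 FPKM at CT2, 230 and 187 FPKM at CT6, 245 and 425 FPKM at CT14, and 413 and 420 FPKM at CT22. Both ΔRRE libraries were below both WT libraries at CT2, CT10 and CT22, widely so only at CT10, and the genotypes overlapped at CT6, CT14 and CT18.

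A wave with a period of 24 h was fitted to log2(FPKM + 0.1), and amplitudes are those of this wave on the log2 scale. In WT the amplitude of *Ces1d* was 0.59 ± 0.08 (SE, n = 12) with a peak at CT18.0 ± 0.490 h (limma, adjusted p = 0.00165), and the highest time-point mean was 2.36 times the lowest. In ΔRRE the amplitude was 0.86 ± 0.12 (SE, n = 12) with a peak at CT20.0 ± 0.540 h (limma, adjusted p = 0.00543), and the ratio of the means was 3.91. With both genotypes together the rhythm of *Ces1d* had an amplitude of 0.70 and a limma adjusted p of 1.24e-05. Without the 2 libraries of high acute-phase sum, the amplitude in ΔRRE was 0.76 with a peak at CT19.2 (limma, adjusted p = 0.0159), and the joint adjusted p by limma was 1.75e-05.

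The count of 1 of 10 genes can be read against the background of all genes tested. Rhythms passed an adjusted p under 0.05 in 10.3% of the 11244 genes in WT, in 4.57% in ΔRRE and in 18.7% when both genotypes were tested together. With 10 members, 1 gene is the smallest count above 0, and no difference from these shares is read from it. The members' median amplitude was 0.14 in WT against 0.20 over all genes, and 0.29 in ΔRRE against 0.19 over all genes. The ΔRRE medians include the 2 libraries of high acute-phase sum and were not computed without them. Leaving these out lowered the ΔRRE amplitude to 0.36 for *Ces2c*, 0.21 for *Ces1e* and *Ces1g*, and 0.14 for *Ces2e*. It fell to 0.087 for *Ces1f* and 0.064 for *Ces3a*, but rose to 0.071 for *Ces1c* and *Ces2a* and 0.19 for *Ces3b*.

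**Figure D2:**
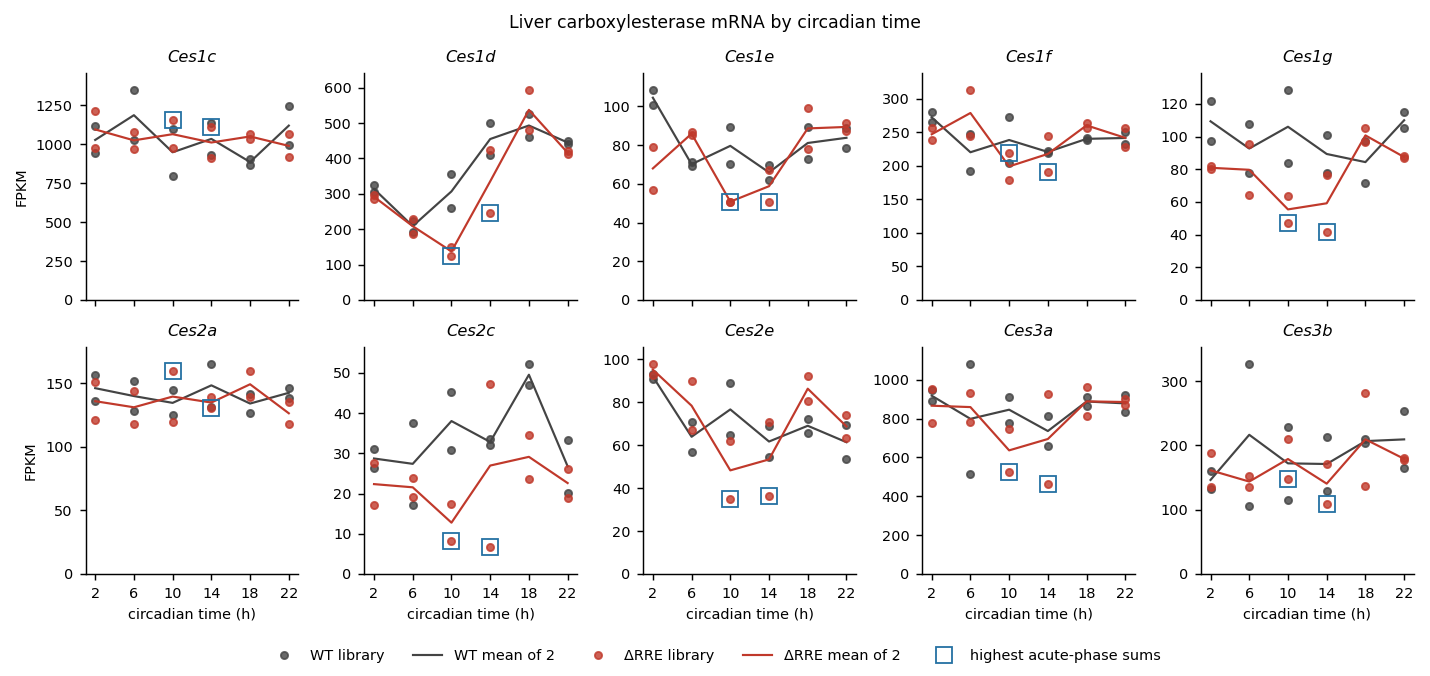
FPKM of the 10 members against circadian time in hours, 1 panel per gene. Points are libraries, lines join the means of 2 libraries, and squares mark the 2 ΔRRE libraries with the highest acute-phase sums; Ces1d rises from CT6 or CT10 to CT18 in both genotypes, and the squares of Ces1g, Ces2c and Ces2e lie below all other libraries.

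The difference in rhythm between the genotypes was tested for itself. It passed an adjusted p under 0.05 for 0 of the 10 members and for 0.00889% of all genes tested (1 gene, *Arntl*), and an unadjusted p under 0.05 for 1 member, *Ces1d*, and for 2.84% of all genes. For *Ces1d* the limma p was 0.0248 unadjusted and 0.9999 adjusted, and the exact permutation test over all divisions of the libraries within time points gave p = 0.141 (two-sided; the smallest p it can give is 4.29e-05). Without the 2 libraries of high acute-phase sum the limma p was 0.173. A change in the timing or depth of the *Ces1d* rhythm was thus not shown.

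The study's own 3 criteria were also applied, with the p of the wave in place of the p of its program. These ask for a p under 0.3, a ratio over 1.5 between the largest and the smallest mean of a time point, and a largest SD within 1.5 times their difference. They were met by 3 members in WT (*Ces1d*, *Ces1e* and *Ces2c*), where 37% of all genes met them, and by 4 members in ΔRRE (*Ces1d*, *Ces1e*, *Ces1g* and *Ces2e*), where 35.4% did. These counts are near the share of all genes and are no result about the members. *Ces1e* peaked near CT0.5 in WT (amplitude 0.22 ± 0.08, SE, n = 12) and at CT22.6 in ΔRRE (amplitude 0.31 ± 0.11, SE, n = 12), and its joint adjusted p by limma was 0.0931. In WT it was highest at CT2, with 108 and 100 FPKM, and lowest at CT14, with 69.6 and 62.2 FPKM. In ΔRRE it was highest at CT22, with 87.1 and 91.6 FPKM, and lowest at CT10, with 50.7 and 50.8 FPKM. At CT2 the ΔRRE libraries held 56.7 and 79.2 FPKM, below the 84.9 and 86.8 FPKM at CT6. Without the 2 libraries of high acute-phase sum the ΔRRE amplitude of *Ces1e* was 0.21.

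*Ces1g* and *Ces2e* had fitted amplitudes in ΔRRE of 0.37 ± 0.12 and 0.43 ± 0.15 (SE, n = 12), against 0.14 ± 0.10 in both genes in WT. These larger values rested on ΔRRE CT10 replicate 1 and ΔRRE CT14 replicate 1, without which they were 0.21 for *Ces1g* and 0.14 for *Ces2e*. *Ces1c*, *Ces2a* and *Ces3b* had amplitudes of at most 0.14 in either genotype. For *Ces1f* the amplitude was 0.10 in WT and 0.14 in ΔRRE, and for *Ces3a* 0.12 and 0.26. Without the same 2 libraries the ΔRRE amplitude of *Ces3a* was 0.064.

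**Figure D3:**
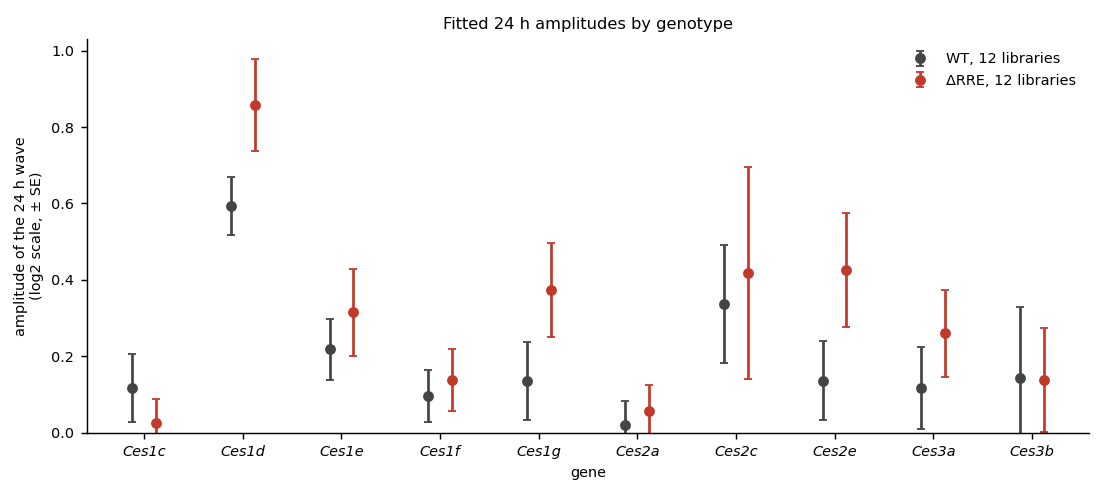
Amplitude of the fitted 24 h wave on the log2 scale for each member, with the SE as bars, in WT and ΔRRE (12 libraries each). Ces1d stands highest in both genotypes, at 0.59 and 0.86, and of the other genes the bars of the genotypes are apart only for Ces1g and Ces2e.

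The mean level over the day was compared between ΔRRE and WT with time point as a factor. At an adjusted p under 0.05, 0 of the 10 members and 0% of all genes tested passed in limma. At an unadjusted p under 0.05, 3 members were lower in ΔRRE (*Ces1d*, *Ces1g* and *Ces2c*) and 0 were higher, while 1.75% of all genes were lower and 7.16% higher. These were 197 and 805 genes, and after rescaling the libraries by the median of ratios 363 and 419 genes, with the same 3 members lower. The log2 difference was below 0 for 8 of 10 members and for 34.5% of all genes, with a median of -0.10 against 0.04 over all genes. After rescaling it was below 0 for 10 of 10 members and 51.2% of all genes, with medians of -0.14 and -0.0033. Without the 2 libraries of high acute-phase sum it was below 0 for 7 of 10 members and 33.7% of all genes. The medians were then -0.059 and 0.041.

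*Ces1g* had the smallest p of the members. In WT its 2 libraries held 122 and 97.0 FPKM at CT2, 107 and 78.0 at CT6, 128 and 83.5 at CT10, 101 and 77.4 at CT14, 97.1 and 71.7 at CT18, and 115 and 105 at CT22. In ΔRRE they held 80.0 and 81.8 FPKM at CT2, 64.0 and 95.3 at CT6, 47.1 and 63.8 at CT10, 41.7 and 76.6 at CT14, 105 and 96.4 at CT18, and 87.1 and 87.8 at CT22. At 4 of 6 time points both ΔRRE libraries were below both WT libraries, and at CT18 the mean of ΔRRE was the higher one. The log2 difference was -0.38 ± 0.13 (SE, n = 12 per genotype, limma unadjusted p = 0.00806, adjusted p = 0.408), with an exact permutation p of 0.0130. Without the 2 libraries of high acute-phase sum it was -0.25 (limma unadjusted p = 0.0387).

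*Ces2c*, whose product is known to hydrolyse acylglycerols, had the largest difference in size and the widest spread. In WT its libraries held 26.3 and 31.1 FPKM at CT2, 17.2 and 37.5 at CT6, 45.3 and 30.7 at CT10, 32.0 and 33.6 at CT14, 46.9 and 52.2 at CT18, and 20.1 and 33.4 at CT22. In ΔRRE they held 17.1 and 27.6 FPKM at CT2, 19.2 and 23.9 at CT6, 8.15 and 17.4 at CT10, 6.74 and 47.2 at CT14, 23.7 and 34.5 at CT18, and 19.0 and 26.2 at CT22. The mean was lower in ΔRRE at 6 of 6 time points, but both ΔRRE libraries were below both WT libraries at only 2, CT10 and CT18, and the 2 lowest values of all were the libraries of high acute-phase sum. The log2 difference was -0.69 ± 0.25 (SE, n = 12 per genotype, limma unadjusted p = 0.0108, adjusted p = 0.438), with an exact permutation p of 0.0152. Without those 2 libraries it was -0.38 (limma unadjusted p = 0.0349), and without CT10 it was -0.50 with an unadjusted p over 0.05. Of its transcript windows, 25.9% are shared with other genes, as given above.

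For *Ces1d* the log2 difference in level was -0.29 ± 0.12 (SE, n = 12 per genotype, limma unadjusted p = 0.0281, adjusted p = 0.496), with an exact permutation p of 0.0502. Without the 2 libraries of high acute-phase sum it was -0.15 (limma unadjusted p = 0.136), and without CT10 it was -0.11. The unadjusted p was also over 0.05 when any 1 of 6 libraries was left out, both of WT CT10, both of ΔRRE CT10, WT CT14 replicate 1 or ΔRRE CT14 replicate 1. It was also over 0.05 without CT10 or without CT14.

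The other 7 members had log2 differences between -0.16 (*Ces1e*) and 0.02 (*Ces1c*), none with an unadjusted p under 0.05. Without CT6, *Ces1e* was at -0.25 with a limma unadjusted p of 0.0371 (adjusted p = 0.513). The 95% interval of the log2 difference was -0.15 to 0.18 for *Ces1c* and -0.19 to 0.09 for *Ces2a*, the narrowest of the 10, and -0.47 to 0.24 for *Ces3b*. For *Ces1f* it was -0.15 to 0.16, for *Ces2e* -0.30 to 0.25 and for *Ces3a* -0.32 to 0.17. Changes within these bounds could not be told from 0. The sign for *Ces1c* and *Ces1f* changed to negative after rescaling by the median of ratios.

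**Figure D4:**
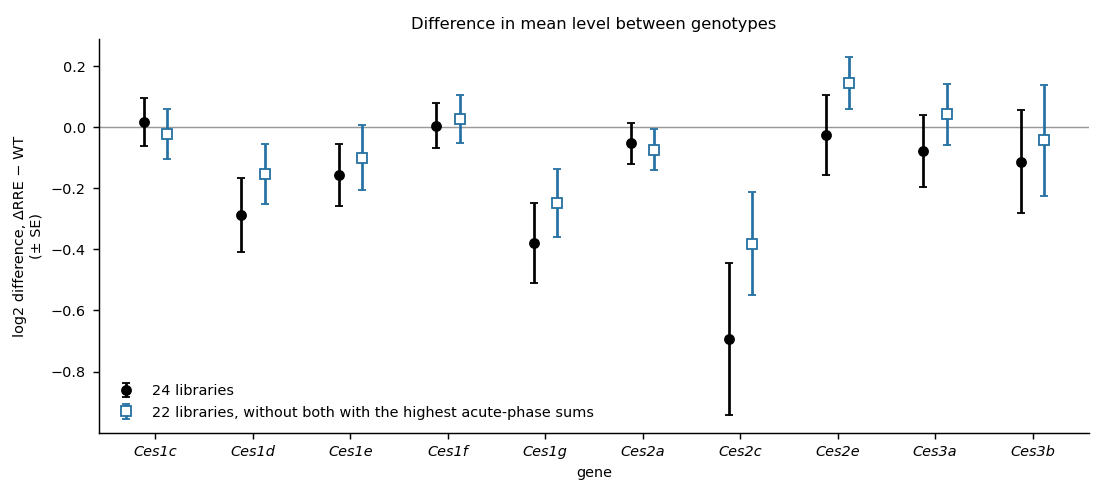
Log2 difference in mean level, ΔRRE minus WT, for each member with the SE as bars. Filled circles use 24 libraries and open squares 22, without the 2 libraries of high acute-phase sum; Ces2c moves from -0.69 to -0.38 and Ces1d from -0.29 to -0.15.

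The 2 libraries of high acute-phase sum set many of the lowest values of the family. ΔRRE CT10 replicate 1 and ΔRRE CT14 replicate 1 held the lowest 2 of 24 values of *Ces1g*, *Ces2c* and *Ces2e*. They also held those of *Ces1e*, at 50.7 and 50.6 FPKM, but ΔRRE CT10 replicate 2 was hardly higher at 50.8 FPKM. For *Ces2e* they were 34.7 and 36.1 FPKM, against 53.4 to 97.9 FPKM in the other 22 libraries. *Ces3a* was lowest in ΔRRE CT14 replicate 1 (466 FPKM), followed by WT CT6 replicate 1 (516 FPKM) and ΔRRE CT10 replicate 1 (526 FPKM). In contrast, *Ces1c* was at 1154 and 1109 FPKM and *Ces2a* at 159 and 131 FPKM in these libraries, inside the range of the others. The part of the acute-phase state, of blood or of the region of the liver sampled in these differences was not tested.

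**Figure D5:**
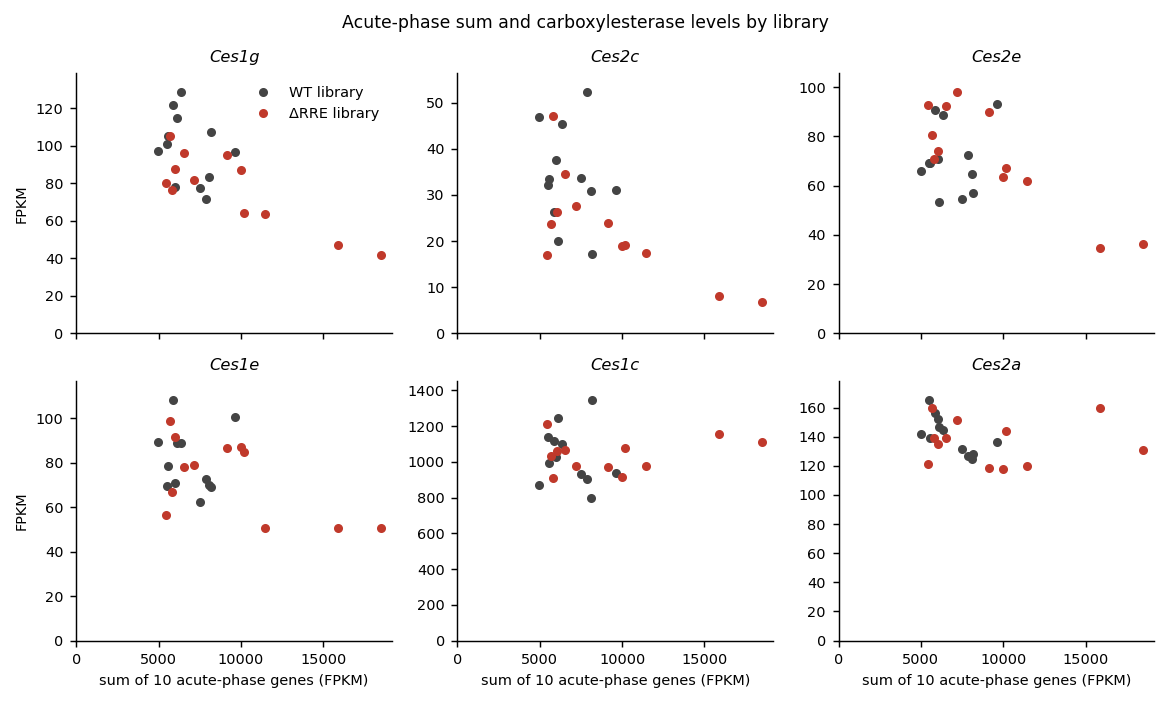
FPKM of 6 members against the summed FPKM of 10 acute-phase genes, with 1 point per library (12 WT, 12 ΔRRE). The 2 ΔRRE libraries at 15890 and 18501 FPKM hold the lowest values of Ces1g, Ces2c, Ces2e and Ces1e but not of Ces1c or Ces2a.

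The members did not move as a block. Over the 24 libraries, 14 of the 45 pairs of members had a Pearson's r over 0.5 on the log2 scale and 11 had an r below 0, and without the 2 libraries of high acute-phase sum 5 pairs had an r over 0.5. These are descriptions, since the libraries share time points and genotypes, and the share of such pairs among all genes was not computed. *Ces1e* and *Ces1f*, adjacent on chromosome 8, had an r of 0.73, and 0.70 without those libraries. *Ces1e* and *Ces1g* had 0.75 and 0.60. *Ces3a* and *Ces3b* had 0.66 and 0.65, and share sequence. *Ces1c* went the other way from *Ces3a* (r = -0.54) and *Ces3b* (r = -0.56), and these values were -0.55 and -0.54 without those libraries. Both differed between the replicate numbers. Among the 12 libraries numbered 1 they were -0.49 and -0.66, and among the 12 numbered 2 they were 0.12 and 0.23. *Ces3b* was higher in replicate 2 than in replicate 1 in 12 of 12 pairs, *Ces2c* in 11, *Ces3a* and *Ces2e* in 10 each and *Ces1c* in 3. What the number stands for is not given in the labels. The r of *Ces3a* with *Ces3b* was 0.57 and 0.51 within the numbers, that of *Ces1e* with *Ces1f* 0.69 and 0.82, and that of *Ces1e* with *Ces1g* 0.77 and 0.79.

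The WT libraries of CT6 stood farthest apart in the makeup of the family. In replicate 1, *Ces1c* was at 1348 FPKM, its highest of 24, while *Ces3a* was at 516 and *Ces3b* at 106 FPKM. In replicate 2, *Ces1c* was at 1025 FPKM, and *Ces3a* at 1081 and *Ces3b* at 327 FPKM were at their highest of 24. The *Ces1* genes made up 70.2% of the family's FPKM in the first library and 49.2% in the second. *Ces2a* differed less, with 128 and 152 FPKM.

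Promoter sequences from RefSeq on GRCm38, from 250 bases before to 50 bases after the start of the transcript, were at hand for 7 of the 10 members, all but *Ces1d*, *Ces1f* and *Ces3a*. They were searched on both strands for the letters of 3 known sites of clock factors and nuclear receptors. The D-box TTATGTAA, which is bound by DBP, TEF, HLF and E4BP4, occurred in 3 of these 7 promoters, *Ces1c*, *Ces1e* and *Ces1g*, and in 0.938% of 32851 promoters. The genes arose by duplication, so their promoters are not independent. The matches are shown with the D-box in capitals, because the *Ces1* promoters share it.
Ces1c, chr8:93131360-93131387, minus strand: agggggagctTTATGTAAttatgctaat
Ces1e, chr8:93229683-93229710, minus strand: tgagagatatTTATGTAAgaagttgttt
Ces1g, chr8:93337424-93337451, minus strand: gggagaaacaTTATGTAAgatgttcctt

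Counted from the RefSeq start of the transcript, which for *Ces1g* lies inside the gene's annotated end given above, the first base of the match lay at -94 in *Ces1c*, -81 in *Ces1e* and -232 in *Ces1g*. The nuclear receptor half-site AGGTCA was found in *Ces2a* and in 16.3% of all promoters. The E-box CACGTG was found in 0 of the 7 and in 7.15% of all promoters. No match overlapped another. A match is only a description, and *Ces1c*, with a D-box, had amplitudes of 0.12 in WT and 0.02 in ΔRRE.

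Of the other 10 carboxylesterase genes in the tables, 3 reached a mean of 1 FPKM. *Ces1b* was at 34.1 ± 6.36 FPKM, *Ces2g* at 15.01 ± 2.42 and *Ces2d-ps* at 1.67 ± 0.715 (SD, n = 24). The pseudogene *Ces2d-ps*, which shares windows with *Ces2c*, was lower in ΔRRE like its neighbour, from 0.422 to 2.32 FPKM (median 1.28) against 1.23 to 2.95 FPKM (median 1.94) in WT. Its log2 difference was -0.85 ± 0.21 (SE, n = 12 per genotype, limma unadjusted p = 0.000744, adjusted p = 0.332), with an exact permutation p of 0.00111. The lowest 2 of its 24 values, 0.422 and 0.456 FPKM, were those of the libraries of high acute-phase sum, and without them the log2 difference was -0.59 ± 0.16 (SE, limma unadjusted p = 0.00132, adjusted p = 0.607). *Ces1b* and *Ces2g* had log2 differences of -0.10 ± 0.11 and 0.01 ± 0.09 (SE). *Ces4a* had a mean of 0.965 FPKM and *Ces2b* 0.532 FPKM. *Ces1a*, *Ces1h*, *Ces2h* and *Ces5a* were at means of at most 0.119 FPKM, and *Ces2f* was listed at 0 in all 24 libraries.

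Other hydrolases of esters and lipids in liver were set beside the family. Of 24 such genes tested, 0 differed in level at an adjusted p under 0.05 (limma), 4 were higher in ΔRRE at an unadjusted p under 0.05 (*Lipc*, *Bche*, *Pon2* and *Faah*) and 1 was lower (*Abhd6*). Over all genes tested these shares were 0%, 7.16% and 1.75%. A joint rhythm passed an adjusted p under 0.05 for 18.7% of all genes tested and for 9 of the 24. By limma the 8 with the smallest adjusted p were *Lipa* (lysosomal acid lipase, amplitude 0.38, peak CT23.6, adjusted p = 0.000285), *Abhd6* (monoacylglycerol hydrolase, 0.50, CT17.9), *Pnpla6* (0.39, CT18.7), *Pnpla2* (adipose triglyceride lipase, 0.58, CT9.77), *Lipc* (hepatic lipase, 0.29, CT1.73), *Pnpla7* (0.41, CT2.65), *Acot1* (0.62, CT20.8) and *Acot12* (0.30, CT9.76). The lipases therefore peaked at different times of day. *Ces1d*, with a joint peak at CT19.2, came closest in time to *Pnpla6* and *Abhd6*.

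Transcription factors known to act on genes of drug and lipid metabolism were set beside it in the same way. Of 16 tested, 0 differed in level at an adjusted p under 0.05 (limma), and 1, *Nfil3* (E4BP4), was higher in ΔRRE at an unadjusted p of 0.0338. Over all genes tested 7.16% were higher in ΔRRE at an unadjusted p under 0.05. A joint rhythm passed for 18.7% of all genes tested and for 9 of the 16 factors. The largest amplitudes were those of *Dbp* (3.39, peak CT10.9), *Nr1d1* (Rev-erbα, 2.93, CT7.80), *Nr1d2* (Rev-erbβ, 1.55, CT9.89), *Tef* (1.41, CT12.6) and *Nfil3* (1.29, CT22.8). *Nr1i2* (the pregnane X receptor, 0.25, CT14.9) and *Nr1h3* (liver X receptor α, 0.16, CT21.2) had smaller ones. The D-box activators *Dbp* and *Tef* peaked before *Ces1d*, and no relation between them was tested.

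For each member the gene outside the family with the most similar pattern was sought by Pearson's r on the log2 scale over the 24 libraries, among 11244 genes. It was *Hsd3b5* for *Ces3a* (r = 0.92), *Acaa1b* for *Ces1e* (0.89), *Cyp1a2* for *Ces2c* (0.88), *AC161607.1* for *Ces1d* (0.88), *Slc39a4* for *Ces2e* (0.88) and *Aldh1a1* for *Ces1g* (0.87). For *Ces3b* it was *Nudt7* (0.84), for *Ces1c* *Cyp2c38* (0.82), for *Ces1f* *Gclc* (0.81) and for *Ces2a* *Cyp3a11* (0.63). The libraries share time points, genotypes and the 2 libraries of high acute-phase sum, and the highest of many r is large by choice. These genes are given as descriptions.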

How the data were processed

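Livers were lysed in TRIzol, and poly(A)-tailed RNA was made into directional libraries and read in pairs of 150 bp. Per the submitters' processing notes, the authors used Trimmomatic 0.39, HISAT2 2.1.0, StringTie 1.3.5 and mm10. The authors deposited FPKM per gene for each library, replicates not pooled. FPKM corrects for length and library total, but reads of near-identical genes can be assigned to either. Read counts were not used here, so no counting error is given.

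Groups follow the genotype and time that the labels give. FPKM values were taken to log2(FPKM + 0.1) without rescaling, and genes averaging 1 FPKM or more were tested (11244 of 54733). Fold changes on this scale understate those of low genes. Linear models in limma 3.58.1 (R 4.3.3, intensity trend, Benjamini-Hochberg over all genes tested) compared level with time point as a factor, and fitted a cosine and a sine of 24 h within WT, within ΔRRE, jointly, and for their difference. BIO_CYCLE, the study's rhythm program, was not run here. Exact permutation tests covered 13 carboxylesterase genes. The steps were tested on simulated data. Alternatives were other added constants (1 and 0.01 FPKM), filters (none, or 5 FPKM on average), rescaling, no trend, the replicate number as a term, time as a factor, a shared spread, and leaving out each library or time point. Leaving out both libraries of high acute-phase sum, and correlations within each replicate number, were chosen after seeing the data. Coding identities are from Biopython 1.88 alignments of GENCODE sequences. Python 3.11.15, NumPy 2.4.6, pandas 2.3.3 and matplotlib 3.10.9 were used.

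The text names the 10 members, the other 10 carboxylesterase genes and, of 26 other hydrolases and 16 transcription factors, up to 8 by adjusted p. A factor of that list and a motif are not reported here. Hydrolases and factors with only an unadjusted p under 0.05 were named after their values were seen. Members and lists were chosen with earlier results of these data known.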

Additional observations from a re-analysis of the deposited data

Results flagged for a closer look

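*Ces2g*, a carboxylesterase gene of the *Ces2* group that was not among the 10 members, differed in its time course between the genotypes by the exact permutation test (two-sided p = 0.0271, raw, 1 of 13 carboxylesterase genes tested). In WT the lowest mean of a time point was 13.4 FPKM (CT22) and the highest 15.7 FPKM (CT18). In ΔRRE the lowest was 10.98 FPKM (CT10) and the highest 18.8 FPKM (CT18). The fitted amplitude on the log2 scale was 0.05 ± 0.08 (SE, n = 12) in WT and 0.28 ± 0.10 (SE, n = 12) in ΔRRE, and limma gave the difference an unadjusted p of 0.0574 and an adjusted p of 0.9999. Its lowest value of 24 was that of ΔRRE CT10 replicate 1, at 8.98 FPKM, and ΔRRE CT14 replicate 1 held 11.1 FPKM. These are the 2 libraries with the highest acute-phase sums. Without them the amplitude in ΔRRE was 0.13 ± 0.08 (SE), and limma gave the difference an unadjusted p of 0.297.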

How the results depend on the processing

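*Ces1d* passed an adjusted p under 0.05 (limma) in all 27 alternatives run for WT (highest p 0.0222), all 28 for ΔRRE (highest p 0.0494, without CT18) and all 39 for the joint rhythm. Its amplitude ranged from 0.48 to 0.67 in WT, and in ΔRRE from 0.67 to 1.01. Counts of members in level and in rhythm difference stayed at 0, and the order of levels had 0 changes. Under the 3 criteria, which use a looser p, 3 members were rhythmic in WT and 4 in ΔRRE in place of 1, and without CT6 2 were in ΔRRE. The joint count rose from 1 to 2 with time point as a factor and without CT2, CT6 or CT22, and ranged from 1 to 2 with single libraries left out (2 without ΔRRE CT2 replicate 1). The added member was *Ces1e*, except *Ces2e* without CT22; the cause was not tested. Log2 differences in level that turned sign ran from -0.062 (*Ces1f*) to 0.14 (*Ces2e*). After rescaling they were -0.023 for *Ces1c* and -0.036 for *Ces1f*. Without both libraries of high acute-phase sum they were -0.022 for *Ces1c*, 0.14 for *Ces2e* and 0.042 for *Ces3a*. Without a time point they were -0.014 (CT10) and -0.027 (CT18) for *Ces1c*, -0.062 (CT6) and -0.017 (CT18) for *Ces1f*, and 0.11 (CT10) and 0.024 (CT14) for *Ces2e*. With single libraries left out they ranged from -0.019 to 0.054 for *Ces1c*, from -0.036 to 0.045 for *Ces1f* and from -0.070 to 0.063 for *Ces2e*.

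Over all genes, 1157 were rhythmic in WT, but 519 without the filter, 361 with time point as a factor, 770 without WT CT2 replicate 1, 740 without WT CT10 replicate 2, 524 to 731 without a time point and 4156 by the 3 criteria. In ΔRRE 514 were, but 197 without the filter, 957 with a shared spread, 298 to 330 without any 1 library of CT14 or CT18, 142 to 257 without CT10, CT14 or CT18, 174 without both libraries of high acute-phase sum and 3985 by the 3 criteria. The joint count of 2107 was 1087 with time point as a factor and 1151 to 1217 without CT10, CT14 or CT18. The 1 gene that differed in rhythm became 0 in most alternatives and 4 with time point as a factor.

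With the replicate block, 1 member, *Ces1d*, was rhythmic in each genotype and jointly, and 0 differed in level or rhythm. *Ces1d*, amplitude in WT, was 0.59 (limma adjusted p = 0.00132). For each group of 2 libraries, the log2 difference between replicate 1 and replicate 2 was taken for every gene tested. Over 66 pairs of groups, correlations of these differences ran from -0.138 to 0.305, 20 of them over 0.1. The number was not used to pair the libraries in the main fits or the permutation tests. Some members nevertheless differed with it in nearly every group, *Ces3b* being higher in replicate 2 in 12 of 12 and *Ces2c* in 11. For these members the p-values of the main fits and permutation tests ignore that difference. With the replicate block the level difference of *Ces2c* stayed at -0.69 (limma adjusted p = 0.303). The reads behind each FPKM are unknown, which limits what can be said of low genes such as *Ces2d-ps*.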
